A study of Mus musculus with 6 samples.

Results

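The genes described here encode the lysosome's proton pump, its main membrane proteins and proteases, 2 transcription factors that regulate them, and the core machinery of autophagy. They were taken by name from the deposited count table: every symbol of the V-ATPase families (Atp6v0, Atp6v1 and Atp6ap), without pseudogenes, together with Lamp1, Lamp2, 8 cathepsins, Tfeb, Tfe3 and 10 autophagy genes. This gave 47 of the 33157 rows, of which 42 had enough reads to be among the 13483 genes tested. RNA came from group 3 innate lymphoid cells (ILC3s), lymphocytes of the gut wall, here sorted from wild-type mouse small intestine by their surface markers (CD45+ lineage- CD127+ KLRG1- with high CD90.2) and held in culture. All cultures received interferon-γ (IFN-γ, 20 ng/mL, 4 h), the control cultures included. In the second group insulin-like growth factor 1 (IGF-1, 200 ng/mL) was present as well. Each group held 3 libraries, and there was no group without IFN-γ. The labels give no age for the mice. They also leave unsaid whether the 3 libraries are 3 animals, 3 cultures or repeats of 1, so the spread behind each p-value may be technical.

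The V-ATPase is a rotary pump: its cytosolic V1 sector burns ATP and turns a rotor that drives protons through the membrane-bound V0 sector, and the acid this makes is what cathepsins, the lysosomal proteases, need. In autophagy, cytoplasm is wrapped in a membrane that carries lipid-linked LC3 and GABARAP proteins and is delivered to the lysosome. TFEB and TFE3, of the MiT/TFE family, bind an E-box motif in many promoters of lysosomal and autophagy genes, and the kinase complex mTORC1, which growth factors including IGF-1 activate, holds these factors in the cytosol and restrains the kinase ULK1 that starts autophagy.

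To show what that motif looks like in these genes, promoters were read from RefSeq (build GRCm38.p6, 250 bases before to 50 after each start site), where 37 of the 47 members had an entry and Atp6ap1l, Atp6v0a2, Atp6v0d2, Atp6v1b2, Atp6v1c1, Atp6v1g1, Atp6v1h, Becn1, Ctsb and Ctsh did not. The palindrome TCACGTGA, searched on both strands, lay in the promoter of 5 of these 37 genes (13.5%) and of 1.12% of all 27025 genes in the table. The stretches that hold it are shown 5′ to 3′ on the gene's strand, with the motif in capitals.

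Atp6v1a, chr16:44139364-44139411, minus strand: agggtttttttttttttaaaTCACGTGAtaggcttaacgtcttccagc
Atp6v0d1, chr8:105566041-105566088, minus strand: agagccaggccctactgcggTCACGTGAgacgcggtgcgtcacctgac
Atp6v0e, chr17:26676378-26676425, plus strand: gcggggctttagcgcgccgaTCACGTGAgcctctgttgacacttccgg
Ctsa, chr2:164833740-164833787, plus strand: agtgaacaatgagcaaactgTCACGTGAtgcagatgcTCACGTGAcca
Ctsd, chr7:142387899-142387946, minus strand: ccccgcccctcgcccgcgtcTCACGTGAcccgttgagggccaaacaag

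The shorter core CACGTG, which every TCACGTGA contains, lay in 10 of the 37 promoters (27%) and in 8.09% of all genes' promoters. Besides the 5 genes above these were Atp6v0b, Lamp1, Ctsl, Atg5 and Atg7. Lamp1 held 4 copies, shown here in capitals within the 250 bases before its start site, together with the same stretch for Sqstm1, the member with the smallest p-value in the comparison, where no copy was found.

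Lamp1, chr8:13158911-13159160, plus strand: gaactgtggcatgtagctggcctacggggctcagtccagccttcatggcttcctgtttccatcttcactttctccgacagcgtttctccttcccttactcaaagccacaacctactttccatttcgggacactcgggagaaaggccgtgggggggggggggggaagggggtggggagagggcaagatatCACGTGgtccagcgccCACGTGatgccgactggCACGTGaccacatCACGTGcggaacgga
Sqstm1, chr11:50210821-50211070, minus strand: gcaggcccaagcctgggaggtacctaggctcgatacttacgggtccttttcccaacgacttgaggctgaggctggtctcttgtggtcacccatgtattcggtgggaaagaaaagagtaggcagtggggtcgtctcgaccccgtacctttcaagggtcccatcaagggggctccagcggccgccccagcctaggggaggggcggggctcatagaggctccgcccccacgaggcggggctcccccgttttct

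Of 3 other motifs, a FOXO element (GTAAACA, both strands) was found in 1 of the 37 promoters (2.7%, against 4.05% of all genes), that of Atp6v1b1. An IFN-γ activated site (TTCNNNGAA) was found in 3 (8.11%, against 9.55%), those of Ctsc, Gabarapl1 and Wipi1. An antioxidant response element (TGACNNNGC, both strands) was found in 7 (18.9%, against 14%), among them Map1lc3b and Ctsd. These matches describe letters in a window and were not tested for binding.

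Before the comparison, the libraries were checked. Total counts ranged from 32573713 to 39206449. Genes typical of ILC3s were present, with Id2, a transcription factor of innate lymphoid cells, at 1931 ± 88.5 and 2515 ± 233 CPM (mean ± SD, n = 3, as throughout; IFN-γ alone first). Because macrophages and dendritic cells are rich in lysosomes, their markers were summed. The 15 macrophage and monocyte genes gave 27.8 to 33.3 CPM with IFN-γ alone and 25.2 to 35.4 CPM with IGF-1. Most of this was Cd68 (12.7 ± 2.8 and 14.4 ± 0.75 CPM) and Aif1 (9.29 ± 2.46 and 6.01 ± 1.07 CPM), and both overlapped between the groups. Itgam, Mrc1 and Cx3cr1 stayed under 1 CPM in every library. Others exceeded 1 CPM in at least 1 library, among them Cd14 (1.59 to 6.32 CPM), C1qb (0.428 to 2.6 CPM) and Csf1r. Csf1r had 0 reads with IFN-γ alone and was at 1.62, 0.899 and 0 CPM with IGF-1. The 8 dendritic cell genes gave 14.7 to 19.4 and 6.9 to 13.5 CPM, mostly from Zbtb46. Itgax and Clec9a were under 1 CPM in every library and Cd209a at 0. Flt3 was at 4.3, 1.46 and 0.0836 CPM with IFN-γ alone and 0, 0.58 and 1.6 CPM with IGF-1. Xcr1 ranged from 0.087 to 3.15 CPM over the libraries. Control replicate 3 stood apart by immunoglobulin transcripts: 8 B and plasma cell genes summed to 1880 CPM there (Igha above all) and to 35.4 to 66.5 CPM in the other 5 libraries. Epithelial genes, nearly all Epcam, gave 33.4 to 48.5 CPM with IFN-γ alone and 14.8 to 22.1 CPM with IGF-1 (log2 fold change -1.13, SE 0.20, adjusted p = 0.0442 for Epcam by edgeR). T cell genes, mostly Trbc2, gave 681 to 879 and 627 to 818 CPM, stromal and endothelial genes, mostly Pecam1, 88 to 114 and 79.4 to 90.3 CPM, and mast cell and granulocyte genes at most 1.49 CPM. What part the cells behind the dendritic cell and plasma cell sums and behind Epcam have in the differences below was not tested. In bulk RNA, fewer cells of a type and less RNA per cell cannot be told apart.

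Levels in ILC3s spanned a wide range. Divided by transcript length (GENCODE M21 lengths, GRCm38), the most abundant member was the V1 rotor subunit Atp6v1f at 684 CPM per kb over the 6 libraries, followed by the stalk subunit Atp6v1g1 at 347, LC3B (Map1lc3b) at 275, the autophagy receptor p62 (Sqstm1) at 255 and the membrane subunit Atp6v0e at 176 CPM per kb. The spread of Map1lc3b and Sqstm1 over libraries overlapped, so their order is not resolved. Among the proteases Ctsz (139), Ctss (108) and Ctsb (78.4) led, and Ctsl was lowest at 5.66 CPM per kb. This order depended on the transcript lengths used. In CPM without that division Ctsb led at 372, before Ctsz (201), Ctsa (181) and Ctss (146), and Ctsl was again lowest at 34.9. The transcription factors were scarcer, with Tfe3 at 9.7 and Tfeb at 3.8 CPM per kb.

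**Figure D1:**
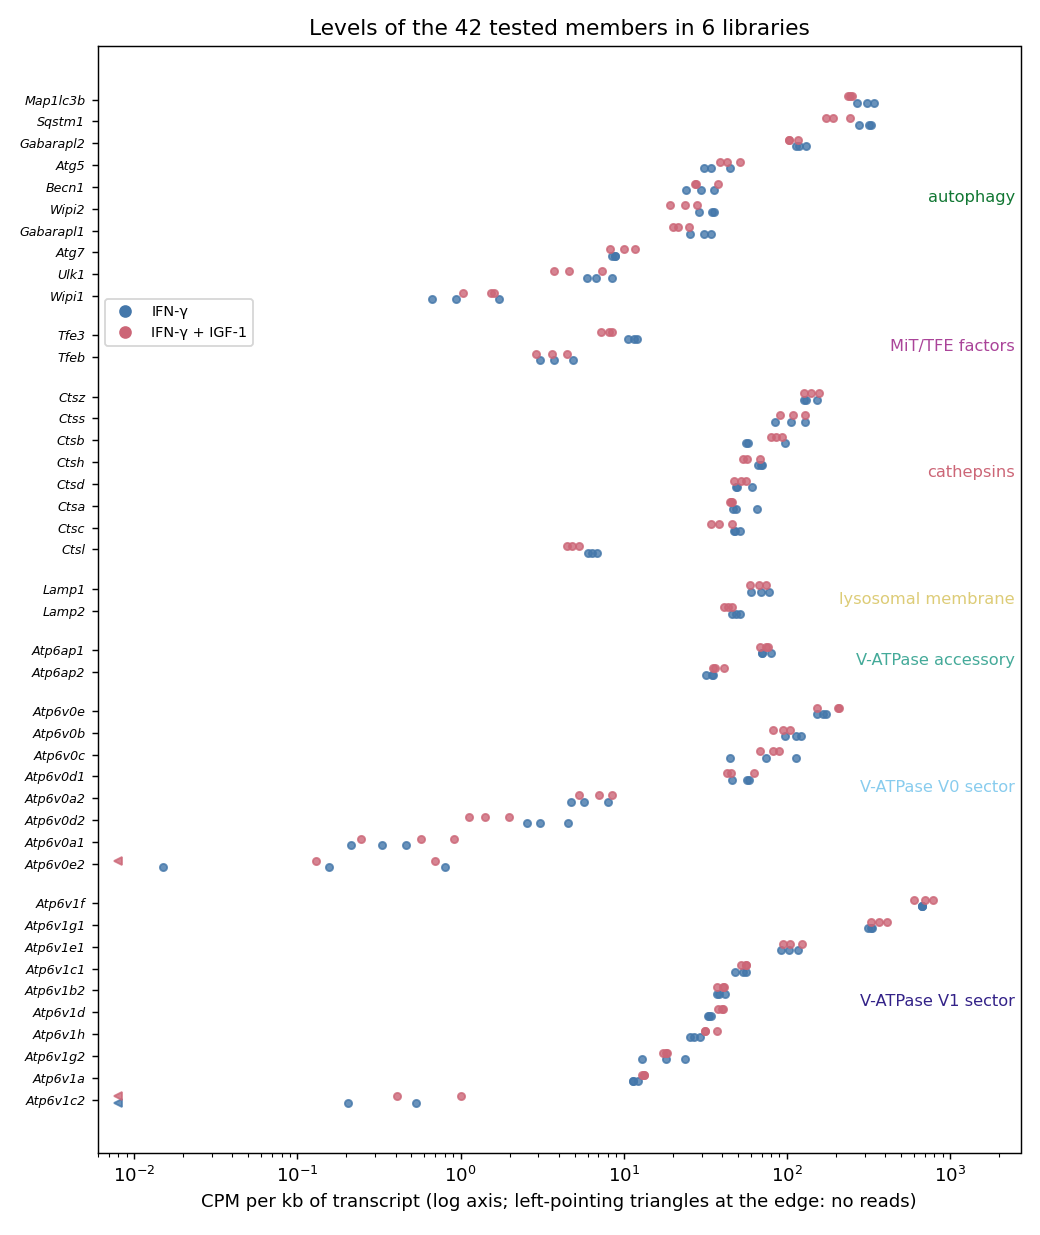
Level of each tested member in the 6 libraries, as TMM-normalised CPM per kb of transcript on a log axis, by member group (blue, IFN-γ alone; red, IFN-γ plus IGF-1; each point is 1 library). Most V-ATPase subunits, cathepsins and autophagy genes lay above 10 CPM per kb, while Atp6v0a1, Atp6v1c2 and Atp6v0e2 had means below 1 (triangles at the left edge, no reads).

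For the a, G and C subunits of the pump, each encoded by several genes, 1 gene supplied most of the transcripts counted among the members. Atp6v0a2 made up 94.8% ± 1.47 (IFN-γ alone) and 91.9% ± 4.61 (IGF-1) of the length-scaled reads of Atp6v0a1, Atp6v0a2 and Atp6v0a4. These genes encode the a subunit, which carries the proton path and directs the pump to its membrane. Any a subunit gene with another kind of symbol was not counted, so this is not a share of the whole subunit. Atp6v1g1 made up 94.7% ± 1.42 and 95.3% ± 0.399 of the G subunit, and Atp6v1c1 99.6% ± 0.493 and 99.2% ± 0.877 of the C subunit. The 5 members that were not tested are paralogs with next to no reads: Atp6v0a4 had 1 count in the control group and 2 in the IGF-1 group, Atp6v1e2 had 2 and 0, Atp6v1b1 and Atp6v1g3 had 0 and 1 each, and Atp6ap1l had 0 in all 6. The thin paralogs that follow were tested but varied too much between libraries to place: Atp6v0a1 at 0.859, 1.32 and 1.87 CPM with IFN-γ alone and 3.63, 2.29 and 0.989 CPM with IGF-1, and Atp6v1c2 and Atp6v0e2 below 2 CPM in every library with SEs of 1.55 and 1.52 on the log2 scale.

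With IGF-1 the groups of genes lay on different sides of 0 without any gene passing the test. Autophagy genes and Tfe3 were mostly lower, led by Sqstm1. V1 pump subunits mostly had small positive log2 fold changes, several of them near 0, and LAMPs and cathepsins were mixed. By edgeR's quasi-likelihood test with Benjamini-Hochberg adjustment over all genes, 0 of the 42 members reached an adjusted p under 0.05, where 0.23% of all genes did so on the higher side and 0.267% on the lower side. DESeq2 called 0 members higher and 1 lower, Sqstm1, where it called 1.48% of all genes higher and 1.9% lower. At an unadjusted p under 0.05, 1 member was higher and 8 were lower (19% of the 42), against 5.58% and 6.24% of all genes. The 3 libraries of each group did not overlap for 4 members with IGF-1 higher and 10 with IGF-1 lower (23.8%), against 8.81% and 9.17% of all genes. Among the 8565 genes with a mean of at least 10 CPM, 8.08% were lower at an unadjusted p under 0.05 and 10.5% did not overlap on the lower side. The median log2 fold change was 0.0014 over the 42 members and -0.01 over all genes tested. The count of 8 lower members depended on single libraries: it was 3 when control replicate 3 was left out, 5 when control replicate 1, IGF-1 replicate 1 or IGF-1 replicate 2 was, 7 for control replicate 2 and 9 for IGF-1 replicate 3.

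**Figure D2:**
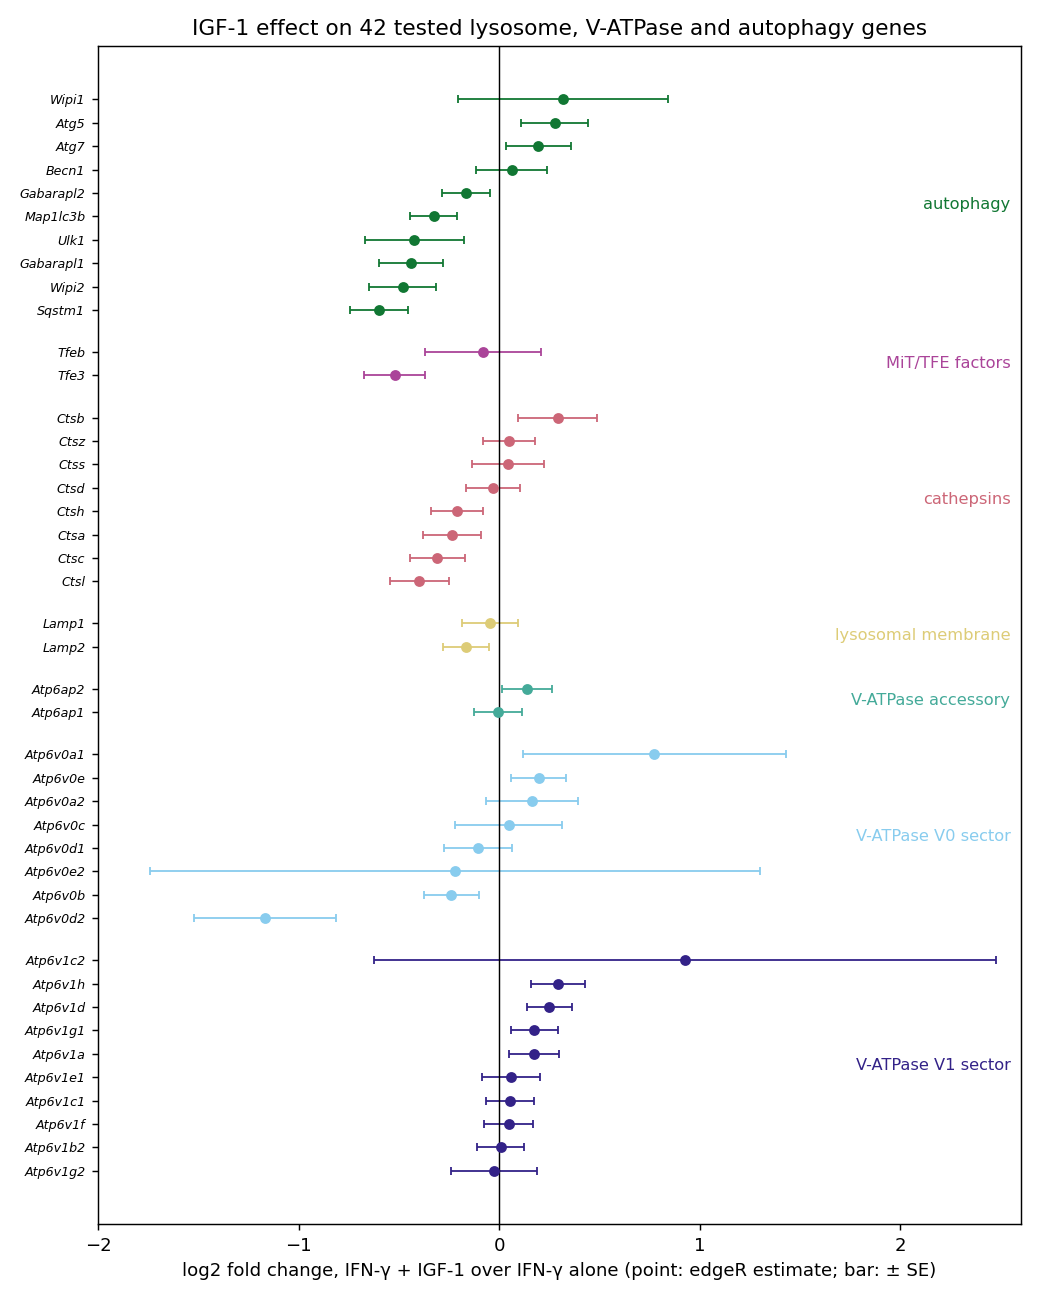
Log2 fold change in cultures with added IGF-1 relative to IFN-γ alone for the 42 tested members (points, edgeR estimates; bars, ± SE), by member group. Points of the V1 sector lie at or right of 0 except Atp6v1g2, and in the autophagy group 6 of 10 lie left of it, from Gabarapl2 at -0.16 to Sqstm1 at -0.60.

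Autophagy genes and the 2 MiT/TFE factors formed the group with the lowest median, -0.25 over 12 genes, a level 15.6% lower with IGF-1. Of the 12, 8 were negative. At an unadjusted p under 0.05, 5 of the 12 were lower (41.7%, against 6.24% of all genes and 8.08% of those of at least 10 CPM), and 5 did not overlap on the lower side (against 9.17% and 10.5%). Sqstm1 encodes p62, which binds ubiquitylated cargo and LC3 and is itself degraded by autophagy. Its level was 846, 737 and 880.1 CPM with IFN-γ alone and 463, 511 and 652 CPM with IGF-1. All 3 libraries with IGF-1 lay under the lowest control library, with means of 821 ± 74.9 and 542 ± 98.1 CPM and a log2 fold change of -0.60 (SE 0.14, adjusted p = 0.126). The call for Sqstm1 turned on the method: its adjusted p was 0.00213 with DESeq2, 0.00519 with no filter on low counts (1.11% of all genes called lower) and 0.045 among genes of at least 10 CPM in 3 libraries (1.33% called lower), and 0.0699 to 0.471 when 1 library was left out.

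The LC3 and GABARAP family are small ubiquitin-like proteins that are attached to the autophagosome membrane. Map1lc3b, Gabarapl1 and Gabarapl2 had negative log2 fold changes, while their relative Gabarap, which is not among the members, overlapped at 477 ± 101 and 501 ± 102 CPM (log2 fold change 0.07, SE 0.18). Map1lc3b was at 865, 679 and 779 CPM with IFN-γ alone and 601, 635 and 616 CPM with IGF-1, without overlap (log2 fold change -0.33, SE 0.12, adjusted p = 0.305). Gabarapl1 was at 62, 46.2 and 56.6 CPM with IFN-γ alone and 36.5, 39.4 and 45.8 CPM with IGF-1, again without overlap, though control replicate 2 and IGF-1 replicate 3 nearly met (log2 fold change -0.44, SE 0.16, adjusted p = 0.301). Gabarapl2 overlapped, with 203 ± 14.7 and 181 ± 13.3 CPM (log2 fold change -0.16, SE 0.12, adjusted p = 0.657). Wipi2, which reads phosphatidylinositol 3-phosphate on the growing membrane and recruits the conjugation machinery, stood at 70.2, 56.7 and 67.7 CPM with IFN-γ alone and 46.7, 37.5 and 55.4 CPM with IGF-1. Its groups did not overlap (log2 fold change -0.48, SE 0.17, adjusted p = 0.286). Its relative Wipi1 was far scarcer, at 2.28 ± 1.12 and 2.85 ± 0.644 CPM, and its groups overlapped.

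For Ulk1, Atg5, Atg7 and Becn1, members that act in initiation and conjugation, the groups overlapped. Ulk1, the kinase that starts autophagosome formation, was at 30.9, 35.4 and 44 CPM with IFN-γ alone and 24.2, 19.5 and 38.6 CPM with IGF-1. IGF-1 replicate 3 reached into the control range (log2 fold change -0.42, SE 0.25, adjusted p = 0.559), and without that library the log2 fold change was -0.75 (adjusted p = 0.208), against -0.23 when IGF-1 replicate 2 was left out. Atg5, part of the enzyme that attaches LC3 to lipid, was at 106, 73.1 and 80.4 CPM with IFN-γ alone and 102, 92 and 121 CPM with IGF-1, with control replicate 1 inside the IGF-1 range (log2 fold change 0.28, SE 0.17, adjusted p = 0.568). The E1-like enzyme Atg7 overlapped at 34 ± 0.816 and 39 ± 6.79 CPM (log2 fold change 0.20, SE 0.16), as did the PI3-kinase subunit Becn1 at 129.8 ± 25.1 and 136 ± 26.1 CPM (log2 fold change 0.06, SE 0.18). In the main test no difference beyond the spread between libraries was detectable for Ulk1, Atg5, Atg7 and Becn1. The unadjusted p of Ulk1 was 0.0386 with edgeR and a replicate block and 0.0353 with DESeq2 and the block. It was 0.0301 by edgeR with no filter on low counts, and the adjusted p was 0.322 to 0.413 in these runs. That of Atg5 was 0.0133 by edgeR without control replicate 1 (adjusted p = 0.193).

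Of the 2 factors, Tfe3 was the more abundant and the one with separate groups. It was at 39.7, 37.8 and 35 CPM with IFN-γ alone and 26.7, 23.8 and 27.9 CPM with IGF-1, so the highest IGF-1 library lay well under the lowest control library. The log2 fold change was -0.52 (SE 0.15, adjusted p = 0.192), a level 30.3% lower with IGF-1, and its adjusted p ranged from 0.0763 to 0.501 over all alternatives, never under the threshold. Tfeb was at 11.4, 7.17 and 8.8 CPM with IFN-γ alone and 8.55, 10.6 and 6.81 CPM with IGF-1, with groups that overlapped throughout (log2 fold change -0.08, SE 0.29, adjusted p = 0.953). The members with the TCACGTGA motif in their promoter lay on both sides of 0: Atp6v1a at 0.18 (SE 0.12), Atp6v0e at 0.20 (SE 0.14), Ctsd at -0.03 (SE 0.13), Atp6v0d1 at -0.10 (SE 0.17) and Ctsa at -0.24 (SE 0.14) on the log2 scale, none at an unadjusted p under 0.05.

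**Figure D3:**
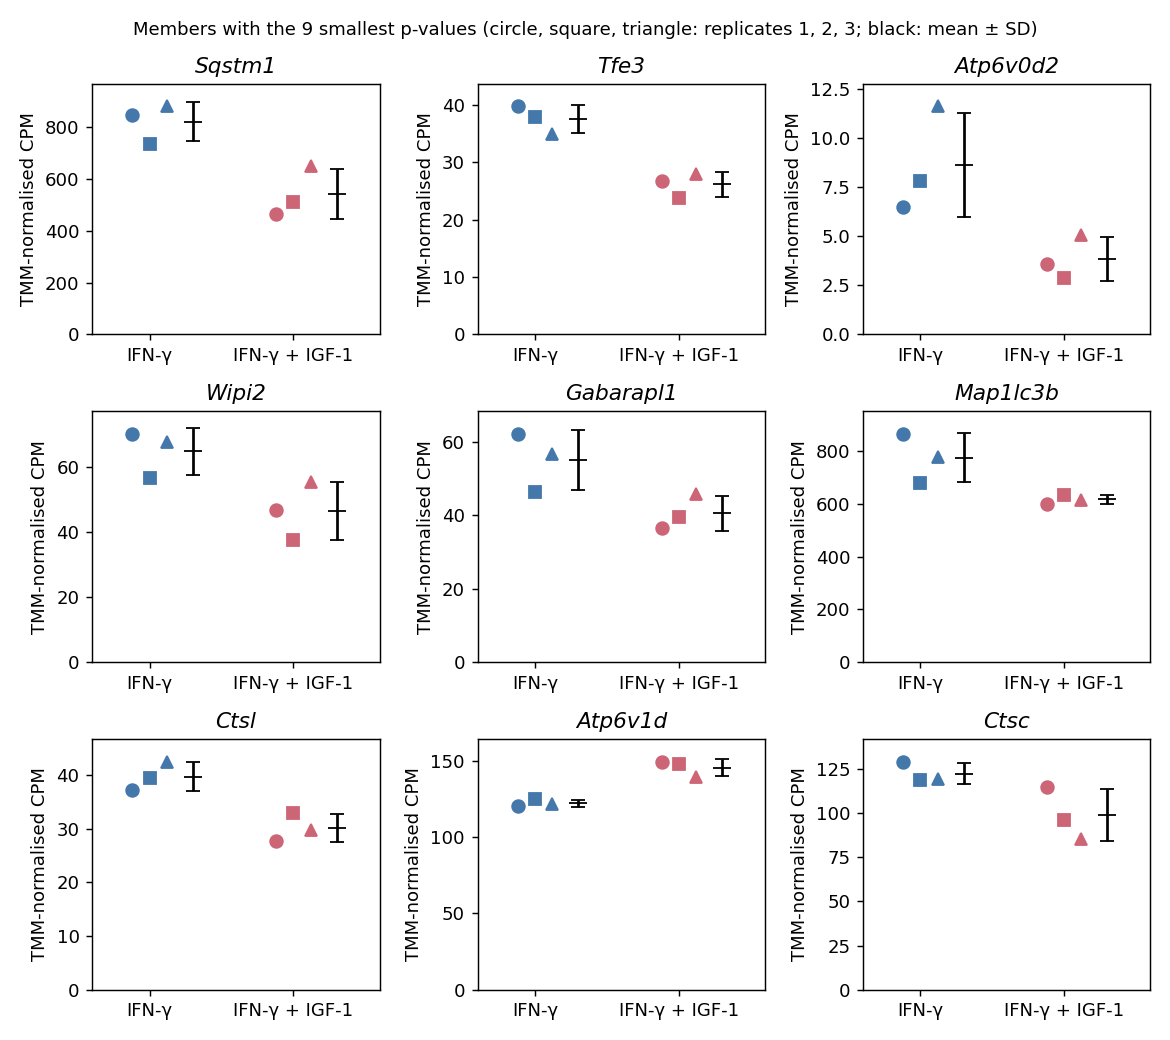
TMM-normalised CPM in each library for the 9 members with the smallest p-values (circle, square and triangle, replicates 1, 2 and 3; black, mean ± SD, n = 3; each axis starts at 0). In every panel the 3 points of one group lie on one side of the other group, lower with IGF-1 in all but Atp6v1d.

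V-ATPase genes had a median log2 fold change of 0.06 over 20 tested members, 14 of them positive. Of all 13483 genes tested, 6560 were positive. In the V1 sector 9 of 10 were positive, with a median of 0.12. The 9 include Atp6v1c2, at 0.93 with an SE of 1.55, and several genes near 0. In this sector 3 of the 10 did not overlap, on the higher side, where 8.81% of all genes did not. Atp6v1d, a subunit of the central rotor shaft, was at 120.3, 125 and 121 CPM with IFN-γ alone and 149, 148 and 139 CPM with IGF-1. The control libraries lay close together and all IGF-1 libraries lay above them (log2 fold change 0.25, SE 0.11, adjusted p = 0.406), and this was the single member higher at an unadjusted p under 0.05. Atp6v1h, a regulatory subunit of the sector, was at 55.1, 59.9 and 52.5 CPM with IFN-γ alone and 64.5, 64.4 and 76.2 CPM with IGF-1. Its groups did not overlap either (log2 fold change 0.29, SE 0.13, adjusted p = 0.424).

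The catalytic subunit Atp6v1a, which hydrolyses ATP, was at 48, 48.1 and 51.6 CPM with IFN-γ alone and 56.1, 54.6 and 56 CPM with IGF-1, a small difference without overlap (log2 fold change 0.18, SE 0.12, adjusted p = 0.645). The stalk subunit Atp6v1g1 was at 374, 379 and 356 CPM with IFN-γ alone and 416, 463 and 374 CPM with IGF-1, and IGF-1 replicate 3 lay inside the control range (log2 fold change 0.18, SE 0.12, adjusted p = 0.624). The other 4 abundant subunits of the sector had log2 fold changes from 0.0079 to 0.06, and their direction turned when single libraries were left out. Atp6v1b2, the nucleotide-binding partner of the catalytic subunit, was at 119, 105 and 109 CPM with IFN-γ alone and 105, 116 and 114 CPM with IGF-1. Atp6v1c1, which takes part in the reversible assembly of V1 with V0, was at 117, 99.7 and 112 CPM with IFN-γ alone and 117, 108 and 116 CPM with IGF-1. The stalk subunit Atp6v1e1 was at 153, 121 and 135 CPM with IFN-γ alone and 137, 163 and 125 CPM with IGF-1. In these 3 genes the libraries of both groups interleaved. The rotor subunit Atp6v1f was nearly constant in the control libraries and spread around them with IGF-1, at 474, 469.8 and 475 CPM with IFN-γ alone and 493, 549 and 424 CPM with IGF-1. Atp6v1g2, a G subunit best known from neurons, overlapped at 27.9 ± 8.17 and 27.4 ± 0.89 CPM and was the negative member of the sector.

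In the V0 sector the 8 tested members were evenly split around 0 (median -0.03, 4 negative), and 1 of them had the most negative log2 fold change of all members. Atp6v0d2, a variant of the d subunit that couples rotor to proton ring and is best known from osteoclasts and macrophages, was at 6.47, 7.8 and 11.6 CPM with IFN-γ alone and 3.6, 2.87 and 5.05 CPM with IGF-1. All IGF-1 libraries lay under all control libraries (log2 fold change -1.17, SE 0.36, adjusted p = 0.209), at a level under 12 CPM that rests on 919 counts in the control group and 428 in the IGF-1 group. Its partner Atp6v0d1, the form found in most cells, was at 74.8, 93.3 and 95.9 CPM with IFN-γ alone and 70.1, 102 and 73.7 CPM with IGF-1 and overlapped (log2 fold change -0.10, SE 0.17, adjusted p = 0.874). The share of Atp6v0d2 among length-scaled reads of the 2 d genes was 5.26%, 5.09% and 7.21% with IFN-γ alone and 3.2%, 1.77% and 4.21% with IGF-1. Of the marker sums given above, that of macrophages overlapped between the groups and that of dendritic cells was lower in all IGF-1 libraries. The dendritic cell sum was mostly Zbtb46, which by itself overlapped at 12.6 ± 3.19 and 8.91 ± 3.19 CPM (log2 fold change -0.50, SE 0.31).

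The other V0 genes varied as much within groups as between them. The proteolipid Atp6v0b, part of the proton-carrying ring, was at 121, 97.9 and 114 CPM with IFN-γ alone and 94.8, 105 and 82.7 CPM with IGF-1 (log2 fold change -0.24, SE 0.14, adjusted p = 0.549). Its ring partner Atp6v0c was at 134, 53.2 and 87.5 CPM with IFN-γ alone and 81.2, 105 and 97.6 CPM with IGF-1, and the control libraries alone covered the whole range (log2 fold change 0.05, SE 0.27). The small membrane subunit Atp6v0e was high in IGF-1 replicates 1 and 2 and just under the lowest control library in replicate 3. Its levels were 488, 432 and 466 CPM with IFN-γ alone and 574, 584 and 431 CPM with IGF-1 (log2 fold change 0.20, SE 0.14, adjusted p = 0.637). Atp6v0a2, the most abundant Atp6v0a member, was at 30.7, 25.4 and 43 CPM with IFN-γ alone and 37.6, 28.3 and 45.3 CPM with IGF-1. Replicate 3 was highest in both groups (log2 fold change 0.17, SE 0.23). Of the accessory proteins that help the pump assemble, Atp6ap1 (Ac45) was at 153, 175 and 153 CPM with IFN-γ alone and 151, 168 and 162 CPM with IGF-1, with groups that overlapped. Atp6ap2, the prorenin receptor, was at 81.8, 81 and 74.1 CPM with IFN-γ alone and 82.1, 95.4 and 83.7 CPM with IGF-1, a separation of under 1 CPM at its nearest points (log2 fold change 0.14, SE 0.12, adjusted p = 0.729). Summed over the V1 and V0 members, transcripts came to 2251 ± 90.5 CPM with IFN-γ alone and 2415 ± 217 CPM with IGF-1. This difference lay within the spread of the libraries.

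**Figure D4:**
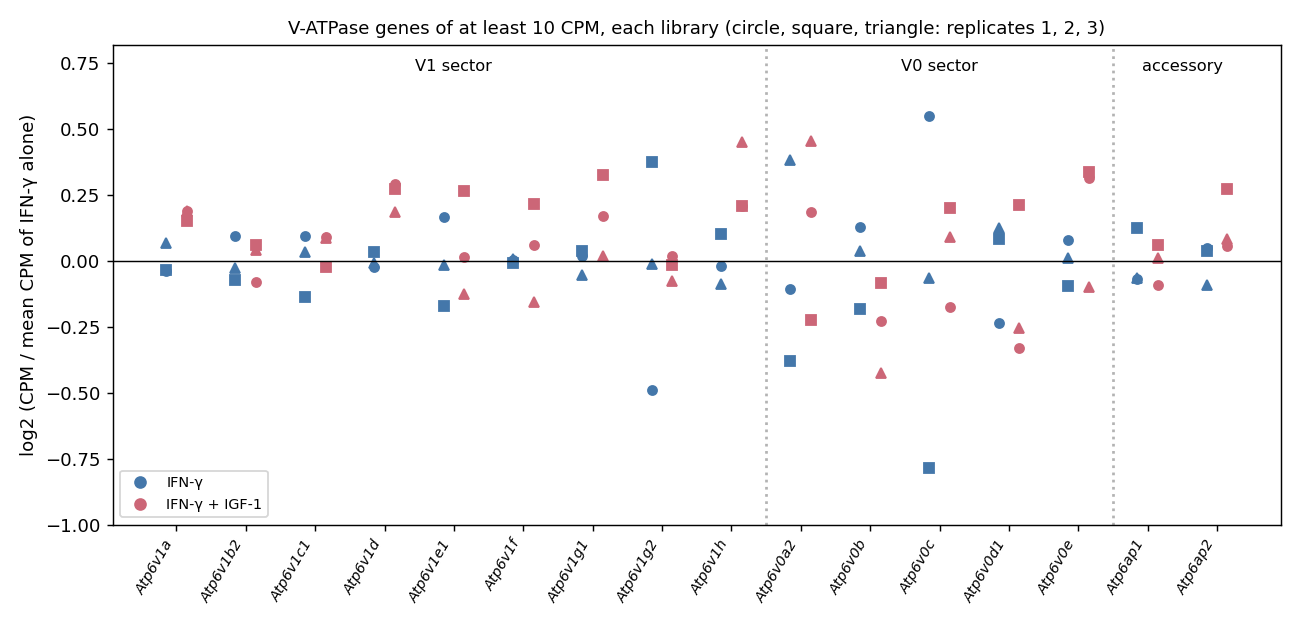
V-ATPase genes of at least 10 CPM on average, as log2 of each library's CPM over the mean CPM of IFN-γ alone (blue, IFN-γ alone; red, IFN-γ plus IGF-1; circle, square and triangle, replicates 1, 2 and 3). The red points of Atp6v1a, Atp6v1d and Atp6v1h all lie above the blue ones, while Atp6v0c spans the widest range and does so among the control libraries.

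LAMPs and cathepsins had a median of -0.11 over 10 genes, 7 of them negative. LAMP-1 and LAMP-2 are heavily glycosylated proteins that line the lysosomal membrane. Lamp1 was at 173, 156 and 134 CPM with IFN-γ alone and 165, 150.3 and 133 CPM with IGF-1, an overlap of nearly the whole range (log2 fold change -0.05, SE 0.14, adjusted p = 0.941). Lamp2 was at 186, 167 and 176 CPM with IFN-γ alone and 166, 156 and 149 CPM with IGF-1, where the highest IGF-1 library lay just under the lowest control library (log2 fold change -0.17, SE 0.11, adjusted p = 0.635).

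The cysteine proteases split. Cathepsin L (Ctsl), an endopeptidase, was at 37.2, 39.4 and 42.5 CPM with IFN-γ alone and 27.7, 32.9 and 29.8 CPM with IGF-1, lower in all IGF-1 libraries (log2 fold change -0.40, SE 0.15, adjusted p = 0.309). Cathepsin C (Ctsc), which activates granule serine proteases by trimming their N-terminus, was at 129, 119 and 119 CPM with IFN-γ alone and 115, 96.1 and 85.6 CPM with IGF-1, also without overlap (log2 fold change -0.31, SE 0.14, adjusted p = 0.41). Cathepsin B (Ctsb) went the other way on average, at 462, 266 and 275 CPM with IFN-γ alone and 377, 405 and 445 CPM with IGF-1. Control replicate 1 was the highest of all 6 libraries (log2 fold change 0.29, SE 0.20, adjusted p = 0.627), and without it the log2 fold change was 0.60 (adjusted p = 0.0726). Cathepsin H (Ctsh) was at 112 ± 2.99 and 96.4 ± 13 CPM, with 1 IGF-1 library inside the control range (log2 fold change -0.21, SE 0.13).

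Cathepsin A (Ctsa), a serine carboxypeptidase that protects other lysosomal enzymes, was at 239, 170.2 and 178 CPM with IFN-γ alone and 166, 169 and 164 CPM with IGF-1, where the groups did not overlap but came within 2 CPM (log2 fold change -0.24, SE 0.14, adjusted p = 0.578). The aspartic protease cathepsin D (Ctsd, 113 ± 14.8 and 111 ± 9 CPM), cathepsin S (Ctss, 144 ± 30.3 and 148 ± 26.3 CPM), which trims the invariant chain of MHC class II, and cathepsin Z (Ctsz, 197 ± 19.9 and 204 ± 22 CPM) had log2 fold changes from -0.03 to 0.05. The 8 cathepsins together came to 1258 ± 210 CPM with IFN-γ alone and 1264 ± 12.1 CPM with IGF-1.

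Other genes of the same pathways were taken from lists that hold none of the members. Of 53 further lysosomal genes tested, 0 passed the test in either direction, and at an unadjusted p under 0.05 there were 3 higher and 8 lower (5.66% and 15.1%, against 5.58% and 6.24% of all genes). The sphingolipid activator precursor Psap was at 109, 94.9 and 101 CPM with IFN-γ alone and 69.5, 78.5 and 54.9 CPM with IGF-1 (log2 fold change -0.59, SE 0.15, adjusted p = 0.147). The β-mannosidase Manba was higher in every IGF-1 library, at 11.8, 15.5 and 12.2 CPM with IFN-γ alone and 21.7, 18.6 and 19.7 CPM with IGF-1 (log2 fold change 0.60, SE 0.20, adjusted p = 0.26). The median over the list was -0.04.

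Of 43 further autophagy genes tested, 0 passed, with 1 higher and 9 lower at an unadjusted p under 0.05 (2.33% and 20.9%, against 5.58% and 6.24% of all genes) and a median of -0.11. Tecpr1, a lysosomal tethering factor for autophagosomes, was at 320.4, 352 and 484 CPM with IFN-γ alone and 191, 186 and 246 CPM with IGF-1. This was the smallest p of the list (log2 fold change -0.89, SE 0.18, adjusted p = 0.0701). Wdr45, a relative of the WIPI proteins, was at 44.9, 51.7 and 66.1 CPM with IFN-γ alone and 35.2, 25.7 and 32.4 CPM with IGF-1 (log2 fold change -0.80, SE 0.19, adjusted p = 0.109). The autophagy receptor homologue Calcoco1 was at 35.4, 18.6 and 32.4 CPM with IFN-γ alone and 13.7, 14 and 14.5 CPM with IGF-1 (log2 fold change -1.03, SE 0.24, adjusted p = 0.113). In all 3 the libraries with IGF-1 lay below every control library. The summed level of the list was 3312 to 3588 CPM with IFN-γ alone and 3123 to 3266 CPM with IGF-1. Of the 10 genes of this list at an unadjusted p under 0.05, the exception in direction was the conjugating enzyme Atg10 (log2 fold change 0.44, SE 0.18).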

How the data were processed

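Per the labels, RNA of lysed ILC3s was made into cDNA libraries with the SMART-Seq HT kit, which copies whole transcripts without keeping strand. The authors deposited whole-number read counts for each gene symbol. Build GRCm39 and the tools featureCounts 1.5.3, HISAT2 2.2.1, SAMtools 1.15.1 and fastp 0.23.2 are named, in no stated order, per the submitters' processing notes. How reads matching several genes were counted is not given in the sources used here, nor are annotation and strand setting, so reads shared with pseudogenes (Atp6v0c, Gabarapl2) or overlapping genes are uncertain.

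Genes were kept with edgeR 4.0.16 filterByExpr (minimum count 10, minimum total 15), normalised by TMM and tested in R 4.3.3 with glmQLFit and glmQLFTest, group as the only term, all 6 libraries, Benjamini-Hochberg adjustment over 13483 genes. The SE is the log2 fold change over the square root of F. CPM values use TMM-scaled library sizes. Per-length values use the longest GENCODE M21 transcript tagged as principal. Genes without that tag, among them Sqstm1, Ctss and Tfeb, use their longest transcript of the basic set. The fit was tested on simulated data. Libraries of a group differed beyond sampling noise (chi-square per degree of freedom 37.0 to 82.8). With 3 against 3, an exact permutation test of 1 gene cannot go below p = 0.1. Counts of PCR reads are not independent molecules.

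Members and lists were chosen with earlier results of these data known. Every member is named. Values per library are given for the 12 members with the smallest p, the 5 largest changes per direction at 10 CPM or more, the most abundant gene of each subunit and group, and Tfeb, Tfe3, Sqstm1, Lamp1 and Ulk1; other members have mean ± SD or log2 fold change. From each further list the 3 genes with the smallest p were named, except 1 that is not reported here, and Atg10, Gabarap, Igha and other marker genes were named after their values were seen. Alternatives were DESeq2 1.42.0 and edgeR each with a replicate block, DESeq2 alone, limma-voom 3.58.1, scaling by RLE, upper quartile or library size, other filters, an adjusted p of 0.1 and each library left out.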

Additional observations from a re-analysis of the deposited data

How the results depend on the processing

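No member was called higher under any alternative run. Sqstm1 was the 1 member called lower with DESeq2, with DESeq2 and the block, with no filter and with the stricter filter, and 0 were called with the other alternatives. At an adjusted p of 0.1, and with any 1 library left out, 0 were called in either direction (range 0 to 0). At an unadjusted p under 0.05 the count of higher members was 0 with the replicate block, with library size scaling, with DESeq2 and the block and with the stricter filter, 2 with upper quartile scaling and with limma-voom, and 0 to 2 with 1 library left out, and that of lower members 3 to 9 with 1 left out. The V-ATPase median was 0.14 with the replicate block, 0.14 with DESeq2 and the block, 0.026 with library size scaling, 0.092 with limma-voom, 0.10 with no filter and 0.061 to 0.14 with 1 library left out. The autophagy and MiT/TFE median was -0.39 with the stricter filter, which drops low genes, and -0.32 to -0.17 with 1 library left out, and the LAMP and cathepsin median -0.15 to -0.01. Log2 fold changes near 0 changed sign: Atp6ap1 was 0.0041 with upper quartile scaling, and Atp6v1b2 -0.023 with library size scaling and -0.0046 with the stricter filter. With 1 library left out, Atp6ap1 ranged from -0.042 to 0.060, Atp6v1b2 from -0.029 to 0.059, Atp6v1c1 from -0.011 to 0.10, Atp6v1e1 from -0.056 to 0.15, Atp6v1f from -0.046 to 0.14, Atp6v0a2 from -0.0029 to 0.40, Lamp1 from -0.14 to 0.045 and Tfeb from -0.25 to 0.12. The cause of these changes was not tested. Same-numbered libraries did not deviate together (correlations of -0.052, 0.0031 and 0.064). With 3 libraries per group these values cannot show whether the numbers pair the samples.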
